A study of Homo sapiens with 8 samples.

Results

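The regions described here are the shores of CpG-dense tiles, which are stretches with fewer listed CpGs that flank tiles with many. The autosomes were divided into tiles of 1000 bases, and a tile counted as dense when 35 or more CpG positions were listed in it in any of the deposited files. A shore was a tile with under 20 listed positions that lay 1 or 2 tiles from a dense tile, with at least 2 CpGs covered by 5 or more reads in every file. This rule gave 9200 shores of the 156808 autosomal tiles that met the read limits (5.87%). Of these, 6229 lay 1 tile from the nearest dense tile (inner shores) and 2971 lay 2 tiles away (outer shores). They were compared with 117696 distant tiles, which also had under 20 listed positions but lay 5 or more tiles from any dense tile.

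Libraries came from HUES64, an established human embryonic stem cell line, with DNMT3A and DNMT3B knocked out, and were made by reduced representation bisulfite sequencing (RRBS), which reads a CpG-rich fraction of the genome after bisulfite conversion. There was 1 library at each of passages 6, 7, 8, 11, 13, 17, 27 and 28, and values by library are given in this order, with passages 27 and 28 as the last pair. All 8 libraries carry both knockouts. Unedited cells are not analysed here, and no value in the files checks the knockouts themselves. Whether 1 culture or clone was followed through the passages is not in the labels, so p-values measure only how these libraries scatter around a trend, which may be technical.

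CpG methylation is set on unmethylated DNA mainly by DNMT3A and DNMT3B, and DNMT1 copies it to the new strand after replication. Most CpG islands, often found at promoters, are free of methylation, while the surrounding genome is methylated. Shores are the transition between these states and are known for methylation that varies between tissues, during reprogramming and in cancer. A level between 0 and 100% in a bulk library cannot tell apart a mixture of cells from a mixture of alleles or strands.

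The dense tiles are defined by listed positions alone and were not matched to annotated CpG islands. Listed positions depend on what RRBS covered, and the full CpG content of the tiles was not measured. A distant tile may therefore lie near a CpG cluster that the files do not list. The nearest dense tile had a measured level for 9013 of the 9200 shores. It started under 20% methylation for 7812 shores, between 20 and 60% for 332 and at 60% or more for 869. Start means the average over passages 6 to 8 throughout. Only 51.2% of the 17986 sparse tiles lying 1 or 2 tiles from a dense tile passed the read limits. Shores had a median of 9 listed CpGs and 461 reads over all libraries, against 6 and 316 for distant tiles. Reads summed over the listed CpGs of a library ranged from 19898423 at passage 11 to 44599588 at passage 6. In all such sums, also per tile, a read that covers several CpGs counts once for each.

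Shores held less methylation than distant tiles and lost part of it. Their mean level was 32.8%, 32.6% and 32.3% at passages 6 to 8, 30.5%, 30.2% and 29.1% at passages 11 to 17, and 24.8% and 24.0% at the last pair. Every later library lay below every earlier one. The first 3 libraries averaged 32.6% ± 0.227 (SD, n = 3) and the last pair 24.4%, so shores retained 74.8% of their start level. The least-squares slope on passage was -0.394 ± 0.0140 points a passage (SE, 8 libraries), with r = -0.996 (two-sided exact permutation p = 2.48e-05, adjusted p = 0.000141). Spearman's rho was -1 (exact permutation p = 4.96e-05). Both p are the smallest that the orders of 8 libraries can give. The adjustment is Benjamini-Hochberg over the 17 slopes tested. Leaving out passages 27 and 28, which lie at the far end, gave r = -0.982 (exact permutation p = 0.00139, n = 6).

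Methylation rose steeply outward from the dense tiles. Inner shores started at 24.4% ± 0.196 (SD, n = 3) and outer shores at 49.8% ± 0.306, while tiles 3 and 4 away started at 58.2% ± 0.532 and 59.2% ± 0.423. Distant tiles started at 67.0% ± 0.367 and dense tiles themselves at 13.2% ± 0.0458. At passages 27 and 28 inner shores stood at 18.4%, outer shores at 36.8% and distant tiles at 55.1%. Shores started lower than distant tiles on all 22 autosomes, and fell on all 22. Just inside and just outside the limit on listed positions, tiles 1 or 2 away with 18 or 19 listed CpGs (656 tiles) started at 21.9% and ended at 16.0%, and those with 20 or 21 (548 tiles) started at 17.9% and ended at 12.5%. Sparse tiles whose richest tile within 2 tiles had 35 or 36 listed CpGs (738 tiles) went from 42.5% to 31.1%, and those where it had 33 or 34 (865 tiles) from 42.0% to 32.0%.

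**Figure D1:**
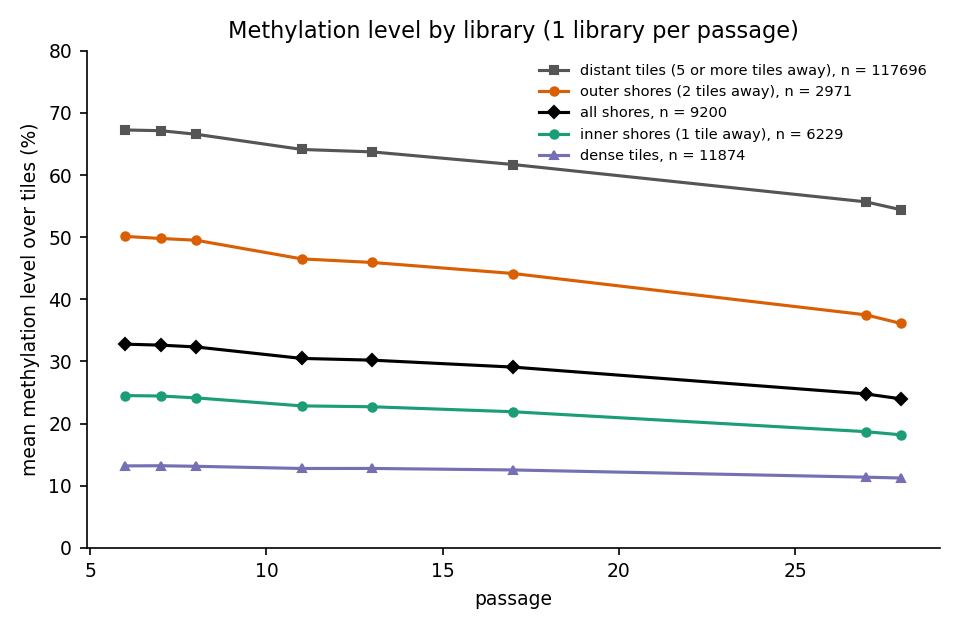
Mean methylation level (percent, tiles weighted equally) against passage for distant tiles, outer shores, all shores, inner shores and dense tiles, with 1 point per library. All 5 groups fell from passages 6 to 8 to passages 27 and 28, and shores (32.6% to 24.4%) lay between dense tiles and distant tiles in every library.

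Read at single CpGs, the rise was concentrated in the first kilobase. Within 250 bases of a dense tile's edge, the 17180 covered CpGs of sparse tiles started at 13.1% ± 0.135 (SD, n = 3) and ended at 10.3%. Between 501 and 750 bases 3740 CpGs went from 35.7% ± 0.338 to 24.7%, and between 1751 and 2000 bases 2542 CpGs went from 49.8% ± 0.245 to 36.1%. Farther out the level changed little, since windows between 2001 and 5000 bases started between 52.3% and 56.8%. The change was -2.71 points in the first window and -13.7 points in the last window of the shores. CpGs that started at 60% or more made up 12.3% of the first window and 49.6% of the last window of the shores. In the first window such CpGs went from 87.4% to 73.8%, and between 501 and 750 bases from 84.3% to 64.2%. These are different CpGs in each window, and the windows were not tested against each other. The first window held 17180 covered CpGs, against 3137 between 751 and 1000 bases. The edge is that of a fixed tile of 1000 bases. Where each CpG cluster ended was not determined, so a cluster may run on into the inner shore.

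**Figure D2:**
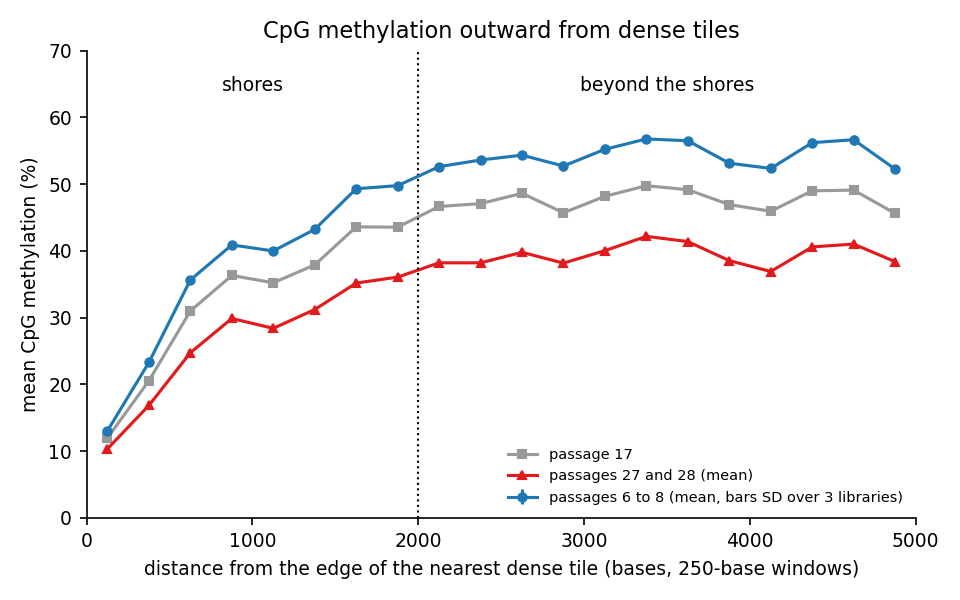
Mean CpG methylation (percent) in windows of 250 bases outward from the edge of the nearest dense tile, at passages 6 to 8 (bars are the SD over 3 libraries), at passage 17 and at passages 27 and 28. The level rose from 13.1% to 49.8% across the shores at the start and from 10.3% to 36.1% at the end, and the passage 17 curve lay between.

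The step between a dense tile and its shore became smaller. Over 5317 inner shores that adjoined a dense tile starting under 20%, the shore's level exceeded that of the dense tile by 15.4 points, 15.4 and 15.1 at passages 6 to 8, 14.1, 13.9 and 13.3 at passages 11 to 17, and 11.0 and 10.6 at the last pair. Its slope was -0.215 ± 0.00808 points a passage (SE, 8 libraries; r = -0.996, exact permutation p = 2.48e-05, adjusted p = 0.000141). The 5596 dense tiles with low start and measured shores held 0.926% at the start and 0.629% at the end, so the step moved mainly with the shore. The step from inner to outer shore on the same side, over 1181 pairs of tiles, went from 22.9 points at passage 6 to 17.97 at passage 28 (slope -0.217 ± 0.0133, SE over 8 libraries; r = -0.989, exact permutation p = 9.92e-05, adjusted p = 0.000281). This test was added after values had been seen.

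Outer shores were not always the more methylated tile. Of the 1181 pairs, the outer tile exceeded the inner one at the start in 784, and by 20 points or more in 522. In 103 pairs the inner tile was higher by 20 points or more. Next to dense tiles that started at 60% or more the order of the means was the opposite, with inner shores (572 tiles) going from 81.2% ± 0.260 (SD, n = 3) to 69.3% and outer shores (297 tiles) from 69.97% ± 0.426 to 51.5%. The 626 methylated dense tiles themselves went from 88.6% ± 0.201 to 74.7%. Next to dense tiles of low start, inner shores (5319 tiles) went from 16.2% ± 0.174 to 11.5% and outer shores (2493 tiles) from 46.8% ± 0.291 to 34.7%.

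Both sides of a dense stretch were measured for 1022 of the 10118 runs of adjacent dense tiles. Both inner shores started under 20% in 507 of these runs and at 60% or more in 92. In 180 runs 1 inner shore started under 20% and the other at 60% or more.

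Single shores were mostly either free of methylation or well methylated. Of all shores 54.8% started under 20%, 26.2% between 20 and 80% and 18.96% at 80% or more, against 14.6%, 36.6% and 48.8% of distant tiles. Under 10% at the start were 60.8% of inner shores and 27.3% of outer shores, against 12.1% of distant tiles. By library, the share of shores at 80% or more was 19.7%, 19.4% and 19.6% at passages 6 to 8, 17.3%, 17.4% and 16.4% at passages 11 to 17, and 12.5% and 11.4% at the last pair. Its slope was -0.363 ± 0.0214 points a passage (SE, 8 libraries; r = -0.990, exact permutation p = 0.000174, adjusted p = 0.000422; rho = -0.952, exact permutation p = 0.00114). The share at 20% or less went from 54.5% at passage 6 to 64.4% at passage 28 (slope 0.437 ± 0.0117, SE over 8 libraries; exact permutation p = 2.48e-05, adjusted p = 0.000141). The share between these levels went from 25.7% to 24.2% (slope -0.0736 ± 0.0131, SE over 8 libraries; exact permutation p = 0.00134, adjusted p = 0.00253), which did not pass without passages 27 and 28 (r = -0.795, exact permutation p = 0.0625, n = 6).

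**Figure D3:**
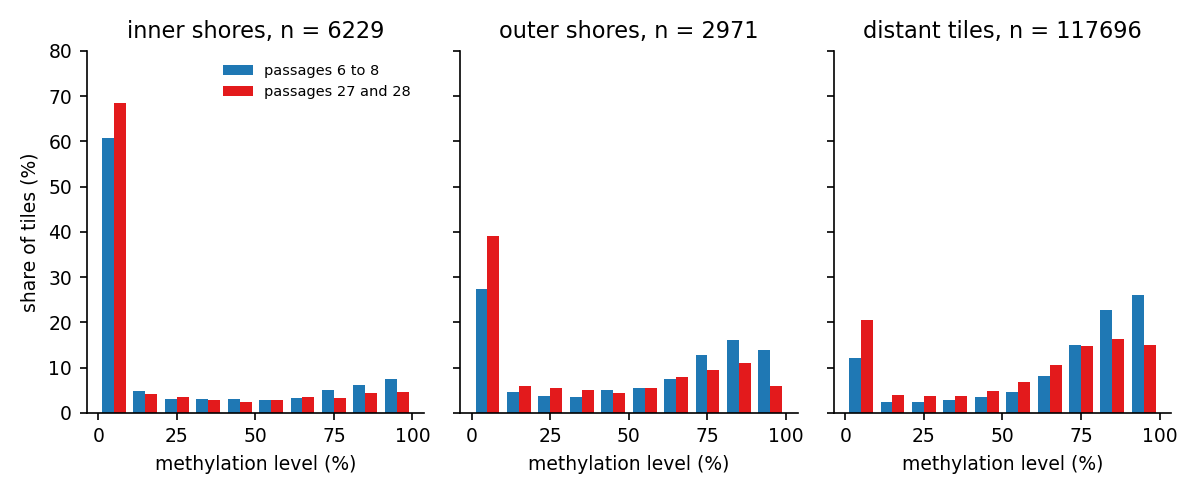
Share of tiles (percent) in each 10-point class of methylation level at passages 6 to 8 and at passages 27 and 28, for inner shores, outer shores and distant tiles. The lowest class held 60.8% of inner shores at the start and 68.5% at the end, and the highest class went from 13.9% to 5.92% of outer shores.

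Tiles of low start ended low in shores and distant tiles alike. Of the 5042 shores that started under 20%, 5020 ended there (99.6%, against 99.4% of such distant tiles). Of the 2414 that started between 20 and 80%, 810 ended under 20% (33.6%, against 25.7% of such distant tiles) and 77 at 80% or more. Among the 1744 shores with 80% or more at first, 997 kept such a level (57.2%, against 60.01% of such distant tiles) and 30 ended under 20%. These shares were not tested, and start levels within each range were not matched. Among the 5319 inner shores whose nearest measured dense tile started low, 689 started at 60% or more, and 450 of these were still at 60% or more at the end while 27 ended under 20%. Of the 639 that started between 20 and 60%, 313 ended under 20% and 6 at 60% or more.

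For the comparison with distant tiles, start levels were made equal by weighting distant tiles to the shores' distribution over start classes of 5 points, because levels and losses both depend on the start. The difference between the means of shores and weighted distant tiles is then 1 value per library. The weighting uses passages 6 to 8, so it holds the mean difference over these libraries near 0. The permutation tests at equal start include them, so their p-values rest partly on the weighting. Over all start levels this difference was -0.282 points, -0.188 and 0.112 at passages 6 to 8, -0.216, -0.259 and 0.0706 at passages 11 to 17, and -0.546 and -0.635 at the last pair. Shores went from 32.6% to 24.4% and weighted distant tiles from 32.7% to 24.96%. The slope of the difference was -0.0203 ± 0.00899 points a passage (SE, 8 libraries) and did not pass the test (r = -0.678, exact permutation p = 0.0609, adjusted p = 0.0796). Spearman's rho was -0.452 (exact permutation p = 0.267). It turned positive with CpGs of 10 or more reads (0.0227, exact permutation p = 0.113), with pooled reads (0.0363, exact permutation p = 0.0209) and with inner shores alone (0.0146, exact permutation p = 0.148). With the start from passage 6 alone and the slope from passage 7 on, it was -0.0147 (exact permutation p = 0.238, n = 7).

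The comparison differed between start classes. Shores that started between 60 and 80% lost more than distant tiles of equal start, although against the distant tiles nearest to them, 5 to 9 tiles away, the sign was the opposite and did not pass the test. The 1128 shores stood at 71.9%, 71.6% and 71.1% at passages 6 to 8, 67.2%, 66.8% and 64.3% at passages 11 to 17, and 52.5% and 50.7% at the last pair, and weighted distant tiles ended at 56.4% and 54.4%. The difference was between -0.360 and 0.375 points at passages 6 to 8, between -1.49 and -1.13 at passages 11 to 17, and -3.87 and -3.73 at passages 27 and 28. Its slope was -0.173 ± 0.0233 points a passage (SE, 8 libraries; r = -0.950, exact permutation p = 0.00213, adjusted p = 0.00363; rho = -0.786, exact permutation p = 0.0279). Without passages 27 and 28 it did not pass (r = -0.707, exact permutation p = 0.121, n = 6). With 10 or more reads per CpG the slope was -0.0186 (exact permutation p = 0.480). With reads per tile matched as well it was -0.0561 (exact permutation p = 0.0359), and with listed positions matched as well -0.0934 (exact permutation p = 0.00724).

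Shores that started between 20 and 40% went the other way. The 595 shores stood at 30.6%, 29.8% and 29.0% at passages 6 to 8, 23.8%, 23.9% and 20.3% at passages 11 to 17, and 13.5% and 12.7% at the last pair, and weighted distant tiles ended at 11.3% and 10.3%. Shores thus retained 43.8% of the start and distant tiles 36.2%. The slope of the difference was 0.117 ± 0.0167 (SE, 8 libraries; r = 0.944, exact permutation p = 0.000719, adjusted p = 0.00153). With 10 or more reads it was 0.0865 and did not pass (exact permutation p = 0.0851, 8 libraries), nor did it against tiles 200 or more away (0.00705, exact permutation p = 0.844). Without passages 27 and 28 the slope was 0.140 and did not pass (r = 0.821, exact permutation p = 0.0514, n = 6).

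The difference between these 2 classes was tested after their slopes had been seen, so its p takes no account of the choice of classes. The slope of shores minus distant tiles in the class of 60 to 80%, less that in the class of 20 to 40%, was -0.290 ± 0.0171 points a passage (SE, 8 libraries; r = -0.990, exact permutation p = 7.44e-05, adjusted p = 0.000253). It did not pass with 10 or more reads (-0.105, exact permutation p = 0.0867).

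In the class of 80 to 90%, 859 shores went from 85.3% ± 0.264 (SD, n = 3) to 69.9% and weighted distant tiles from 85.2% to 72.4%. The slope of the difference was -0.129 ± 0.0264 (SE, 8 libraries; exact permutation p = 0.0117, adjusted p = 0.0165), and it rested on passages 27 and 28, since r without both was -0.156 (exact permutation p = 0.776, n = 6). On omission of passage 27 or of passage 28 alone it no longer passed (exact permutation p = 0.0544 each, n = 7). Shores that started at 90% or more (885 tiles) went from 94.0% to 85.3% and weighted distant tiles from 94.1% to 86.1% (slope of the difference -0.0241 ± 0.0148, SE over 8 libraries; exact permutation p = 0.161). The 691 shores that started between 40 and 60% went from 49.999% to 26.6% and weighted distant tiles from 49.995% to 27.1% (slope -0.0196 ± 0.0313, SE over 8 libraries; exact permutation p = 0.549). With 10 or more reads the slope in this class was 0.180 (exact permutation p = 0.0152). In the lowest class, under 20%, 5042 shores went from 2.04% to 0.866% and weighted distant tiles from 2.24% to 0.725% (slope 0.0169 ± 0.00390, SE over 8 libraries; exact permutation p = 0.00665, adjusted p = 0.0103). The difference was -0.195 points at the start and 0.141 at the end, so start levels in this class were not quite equal. These levels are near 0, and the rate of bisulfite conversion was not checked here.

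**Figure D4:**
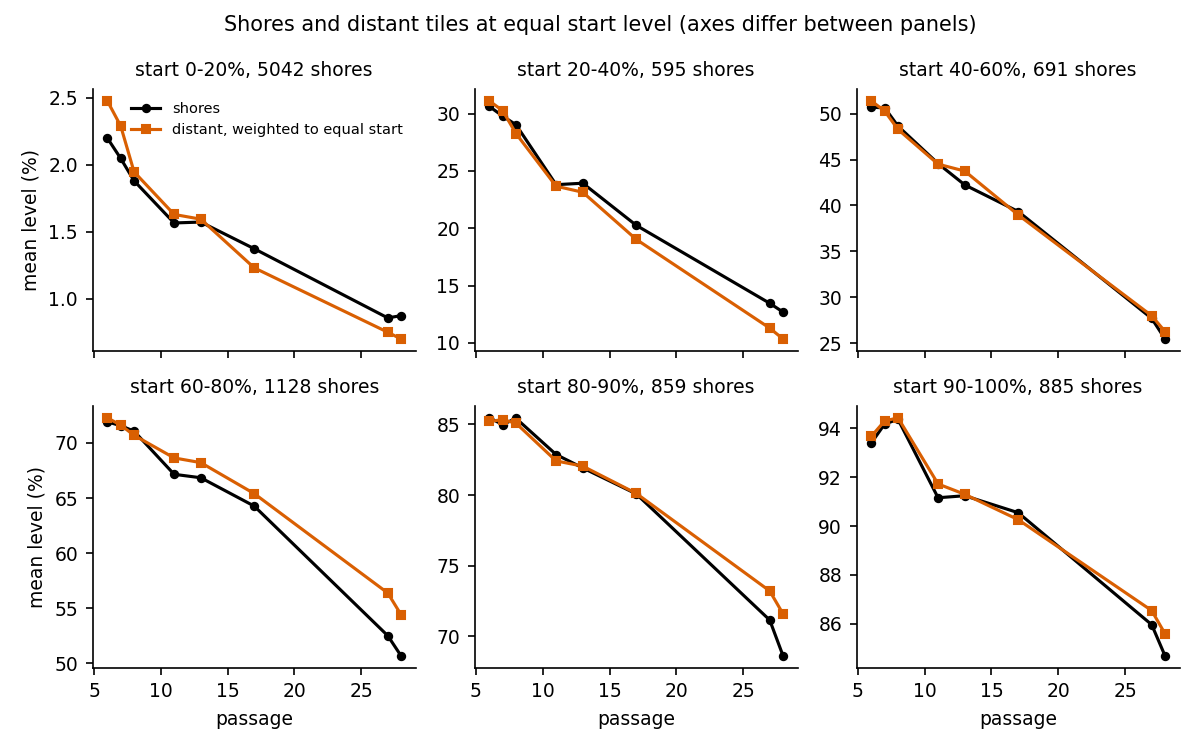
Mean level (percent) by passage of shores and of distant tiles weighted to equal start, in 6 classes of start level, with 1 point per library. The vertical axes differ between panels. Shores ended lower than distant tiles in the class of 60 to 80% (51.6% against 55.4%) and higher in the class of 20 to 40% (13.1% against 10.8%).

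The comparison depended on how far away the distant tiles lay. Weighted to the start levels of the shores, sparse tiles changed by -7.62 points at 1 tile from a dense tile, -8.96 at 2, -9.43 at 3, -9.31 at 4, -9.02 at 5 to 9, -8.75 at 10 to 19, -8.31 at 20 to 49, -7.87 at 50 to 99, -7.38 from 100 up to 200 and -5.68 at 200 tiles or more. The change was thus smallest in the tiles farthest out, largest 3 tiles away and smaller again toward the dense tile. Against tiles 5 to 9 away the slope of the shores was higher by 0.0419 ± 0.0116 points a passage (SE, 8 libraries; exact permutation p = 0.0136). Against tiles 200 or more away it was lower, at -0.119 ± 0.00927 (SE, 8 libraries; exact permutation p = 0.000422). In the class starting between 60 and 80% the slope of shores minus such tiles was 0.0459 ± 0.0201 against tiles 5 to 9 away (exact permutation p = 0.0702, n = 8) and -0.493 ± 0.0333 against those 200 or more away (exact permutation p = 0.000471, n = 8). Both comparisons were chosen after the main result was seen, and distances of the tiles from genes were not analysed here.

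**Figure D5:**
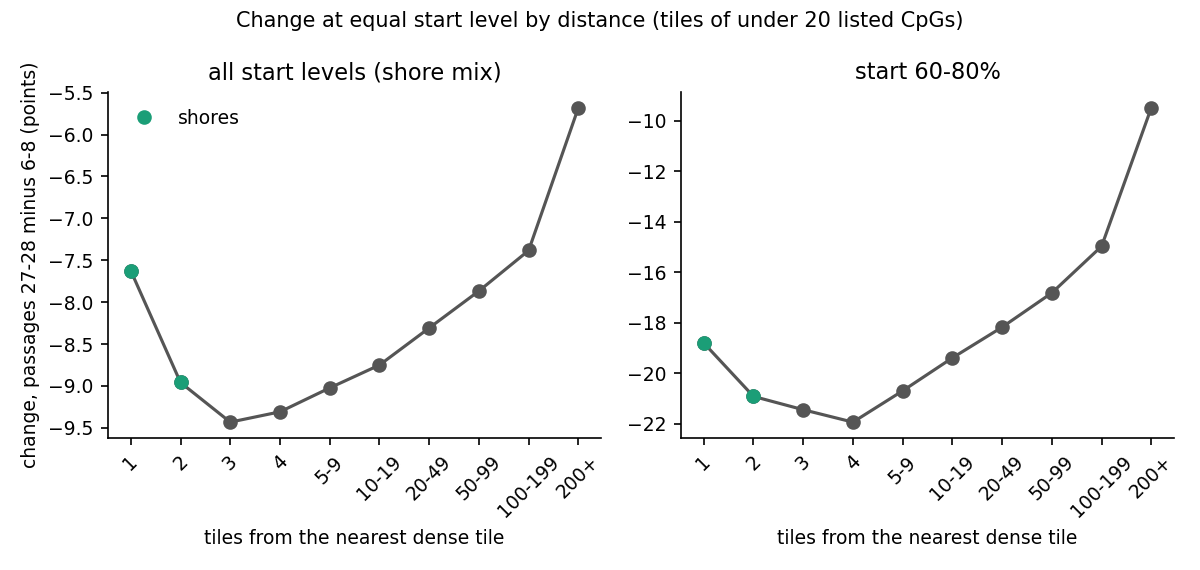
Change in methylation (points, passages 27 and 28 minus passages 6 to 8) against distance from the nearest dense tile in tiles of 1000 bases, for all start levels weighted as in the shores (left) and for tiles starting between 60 and 80% (right). Both curves were lowest at 3 or 4 tiles, and tiles 200 or more away changed least (-5.68 and -9.48 points). The vertical axes do not start at 0 and differ.

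Inner and outer shores also differed at equal start. With outer shores weighted to the start levels of inner shores, inner shores went from 24.4% to 18.4% and outer shores from 24.5% to 17.4%, retaining 75.7% and 71.3%. Inner minus outer was -0.240 points, -0.0184 and -0.0742 at passages 6 to 8, 0.389, 0.537 and 0.749 at passages 11 to 17, and 0.940 and 1.07 at the last pair. The libraries from passage 11 on all lay above those of passages 6 to 8, whose mean the weighting held near 0. The slope was 0.0532 ± 0.00779 points a passage (SE, 8 libraries; r = 0.941, exact permutation p = 4.96e-05, adjusted p = 0.000211; rho = 0.976, exact permutation p = 0.000397), and without passages 27 and 28 r was 0.974 (exact permutation p = 0.00278, n = 6). With 10 or more reads it was 0.0660 (exact permutation p = 2.48e-05), and with 20 or more reads 0.0379 (exact permutation p = 0.323). With the start from passage 6 alone and the slope from passage 7 on, it was 0.0533 (exact permutation p = 0.00357, n = 7). By class, which was not tested, inner shores went from 1.79% to 0.849% and weighted outer shores from 1.96% to 0.635% where the start was under 20%. Between 20 and 40% they went from 29.6% to 13.98% and from 29.8% to 11.4%, and between 40 and 60% from 49.9% to 28.6% and from 49.9% to 24.1%. Between 60 and 80% they went from 71.3% to 52.5% and from 71.4% to 50.4%. Between 80 and 90% the end levels were closest among the classes above 20%, at 70.5% and 69.99%, and at 90% or more they were 86.7% and 83.8%.

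Neither the state of the neighbouring dense tile nor the number of listed CpGs showed a difference that passed the test. Both comparisons matched start level but not distance from the dense tile, although inner and outer shores differed at equal start. Shores of methylated dense tiles went from 77.4% to 63.2%, and shores of low dense tiles weighted to the same start levels from 77.0% to 63.3%. The slope of the low group minus the methylated group was 0.0309 ± 0.0284 points a passage (SE, 8 libraries; exact permutation p = 0.314). It was -0.0661 when dense tiles under 10% were set against those at 80% or more (exact permutation p = 0.0915). Shores with under 10 listed CpGs (5028 tiles) went from 36.7% to 27.4%, and the 4172 with 10 to 19, weighted to the same start, from 36.8% to 27.2% (slope of the difference 0.0126 ± 0.01204, SE over 8 libraries; exact permutation p = 0.340).

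The share of the fall made early differed between start classes. By passage 17 shores had made 56.9% of their fall in the class under 20%, 57.1% between 20 and 40%, 45.5% between 40 and 60%, 36.4% between 60 and 80%, 33.8% between 80 and 90% and 39.7% at 90% or more. In the same order, the shares in weighted distant tiles were 66.6%, 56.9%, 48.2%, 38.0%, 39.7% and 48.0%. These shares were not tested.

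Tile by tile, 1801 of 5038 tested shores lost methylation (35.7%) and 7 gained it, where the background over all 120765 tested tiles was 30.2% lost and 0.19% gained, and 29.8% of 101662 tested distant tiles were lost. The test was a quasi-binomial regression of reads on passage with limma's moderated dispersion, and a call needed an adjusted p under 0.05 and a fitted change of 10 points between passages 6 and 28. The other 4162 shores had fewer than 10 methylated or 10 unmethylated reads over all libraries and were not tested. Of the 117696 distant tiles 101662 were tested, a larger part than of the shores, so the shares called rest on unlike selections. Of the 5042 shores starting under 20%, 945 were tested, so these counts describe mainly shores with methylation to lose. The median change among the losses was -30.9 points in shores, with quartiles of -43.7 and -21.8, against -33.0 points over all tested tiles. Falls of 50 points or more were called in 302 tested shores (5.99%), a share near the 5.52% of all tested tiles and the 5.31% of tested distant tiles. Without passage 6 the gains numbered 4 and without passage 27 they numbered 3, against 189 and 148 over all tested tiles. Losses were called in 900 of 2772 inner shores (32.5%) and in 901 of 2266 outer shores (39.8%).

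By start class, losses were called in 23.9% of 945 tested shores starting under 20% and in 33.4% of 5484 such distant tiles, and in 52.4% of 595 tested shores starting between 20 and 40% and in 62.2% of distant tiles of that class. Between 40 and 60% the shares were 54.3% and 51.6%, between 60 and 80% 39.7% and 29.2%, between 80 and 90% 32.6% and 24.5%, and at 90% or more 19.5% and 19.6%. Over all tested tiles they were 23.7%, 61.1%, 53.0%, 31.3%, 25.8% and 19.1% from the lowest class up. In the lowest class shores thus lay near the share of all tested tiles. Of that class 945 of 5042 shores and 5484 of 17227 distant tiles were tested, so the tested sets are unlike. Losses were called in 226 of these 5042 shores and in 1829 of these 17227 distant tiles. These shares were not tested against each other, and shores have more reads per tile. The order of shores and distant tiles depended on which tiles were tested. In the main fit the limit on reads kept 5038 of 9200 shores and 101662 of 117696 distant tiles. Counted over all tiles with levels, losses were called in 1801 of 9200 shores and 30264 of 117696 distant tiles, the lower share in shores. With limma on logit levels, where all tiles were tested, losses were called in 13.4% of shores and 17.1% of distant tiles. With 10 or more reads per CpG the shares were 47.8% and 47.4%. Over all tested tiles they were 15.7% with limma on logit levels and 46.1% with 10 or more reads.

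The shores with the largest falls went from high methylation to almost none, most of it after passage 17. The inner shore on chromosome 21 at 46952001 to 46953000 (hg19, 3 CpGs) stood at 91.3%, 92.3% and 85% at passages 6 to 8 and at 81.3%, 58.5% and 62.5% at passages 11 to 17. None of its 122 reads was methylated at passages 27 and 28, which allows a level of up to 2.46%. The adjusted p was 4.54e-07 with limma's moderated dispersion. It was the only 1 of these 5 shores with a call over passages 6 to 17 alone.

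On chromosome 10 the inner shore at 679001 to 680000 (4 CpGs) stood between 86.0% and 97.3% in each library up to passage 17, at 87.8% there, and had no methylated read among 136 at passages 27 and 28, which allows up to 2.21%. An outer shore on the same chromosome, at 687001 to 688000 (3 CpGs), stood between 70.2% and 92.6% up to passage 17 and had none methylated of 138 reads later, which allows up to 2.17%. Both were thus high in 6 libraries and empty in the last 2. The outer shore on chromosome 1 at 2239001 to 2240000 (2 CpGs) fell from 94.4% ± 6.70 (SD, n = 3) to a mean of 8.33%, with 16.7% at passage 27 and 0 at passage 28 (95% Wilson interval of the pooled reads 1.82 to 11.4%). The inner shore on chromosome 19 at 4218001 to 4219000 (6 CpGs) fell from 82.8% ± 15.3 (SD, n = 3) to 0.980% (pooled Wilson interval 0.124 to 3.88%). Intervals and limits cover counting error only. They treat reads summed over the CpGs of a tile as independent, although 1 read can cover several CpGs, so they may be too narrow.

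Rises were few. The inner shore on chromosome 1 at 2988001 to 2989000 (3 CpGs) had no methylated read among 249 at passages 6 to 17, which allows up to 1.20%, and then 20.4% at passage 27 and 39.2% at passage 28 (pooled Wilson interval 21.9 to 39.6%, 100 reads; adjusted p = 4.49e-06 with limma's moderated dispersion). It kept its call on omission of any single library. The outer shore on chromosome 3 at 126263001 to 126264000 (2 CpGs) had 56.1% ± 5.36 (SD, n = 3) at the start and 87.7% at the end, on 12 to 30 reads per library. The inner shore on chromosome 2 at 90414001 to 90415000 (3 CpGs) went from 57.3% ± 9.78 to 75.3%, the outer shore on chromosome 3 at 101393001 to 101394000 (6 CpGs) from 65.9% ± 6.77 to 83.7%, and the inner shore on chromosome 4 at 6989001 to 6990000 (2 CpGs) from 0.784% ± 1.36 to 11.999%. These 4 rises lost their calls on omission of passage 6 or of passage 27. All but the one on chromosome 3 at 126263001 also lost them without passage 28, and the one on chromosome 4 without passage 7 or 8. The adjusted p of these losses of a call lay between 0.0547 and 0.345 by the same limma-moderated fit.

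Only 2 dense tiles had 4 measured shores that all started at 60% or more, and both were themselves methylated. Around the dense tile on chromosome 16 at 1254001 to 1255000 (38 listed CpGs) the shores went from a mean of 77.9% ± 3.19 (SD, n = 3) to 49.9%, and all 4 were called as losses. The inner shore before it fell farthest, from 65.2% to 24.7%, while the dense tile went from 87.1% to 75.03%. Around the dense tile on chromosome 7 at 157293001 to 157294000 (39 listed CpGs) the shores went from 87.1% ± 3.36 to 85.9% with no call, and the dense tile from 91.2% to 89.3%.

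Levels varied between autosomes. The start level of shores ranged from 24.5% on chromosome 6 (312 shores) to 41.8% on chromosome 21 (113 shores). At equal start over all levels the slope of shores minus distant tiles was negative on 13 of 22 autosomes. It was negative on 16 of 22 among tiles starting between 60 and 80% and on 3 of 22 among those starting between 20 and 40%. Single autosomes held few shores of a class, such as 2 on chromosome 21 between 20 and 40%, and their slopes were not tested.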

How the data were processed

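RRBS of genomic DNA from HUES64 cells with DNMT3A and DNMT3B knockouts was available for 8 libraries, 1 per passage. The submitters' processing notes name build hg19, and the authors' deposited files list CpGs with their positions. The labels explain neither value column. The fourth deposited column holds 2 whole numbers, read here as methylated and total reads and used as counts. The fifth deposited column is a score that lay within 0.5 of 1000 times the ratio of these numbers in all lines, from which this reading was taken. How reads were aligned and called, and whether duplicates were removed, is not given in the sources used here. Duplicates, and reads that cover several CpGs of a tile, would make counting intervals and limits too narrow.

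Reads were summed over the CpGs of a tile with 5 or more reads in every file, and tiles had equal weight in means. Listed CpGs were counted over all 8 files. Slopes are least-squares fits on passage, with two-sided exact permutation tests over all 40320 orders of the libraries (Python 3.11.15, NumPy 2.4.6). Outer shores, distant tiles and the denser shores were weighted to the start distribution of the other group in bins of 5 points, and for dense neighbours in bins of 10. All 156808 tiles went into the quasi-binomial fit (R 4.3.3, limma 3.58.1), with 10 reads of each state and a dispersion of at least 1, adjusted over 120765 tested tiles.

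The members and lists were chosen with earlier results of these data known. Named tiles are the 5 called falls and the 5 called rises of largest change from passages 6 to 8 to passages 27 and 28, and the dense tiles with 4 shores starting at 60% or more. A planned set of dense tiles of low start with 4 methylated shores had 0 members. No hg19 genome or annotation was used here, so tiles carry no sequences or gene names. Positions are counted from 1.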

Additional observations from a re-analysis of the deposited data

Results flagged for a closer look

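A difference of slopes in points per passage (exact permutation tests over 8 libraries, Benjamini-Hochberg over 17 slopes) passed after adjustment in 6 comparisons. Shores minus distant tiles of equal start had a slope of 0.0169 in the class starting under 20% (adjusted p = 0.0103), 0.117 between 20 and 40% (adjusted p = 0.00153), -0.173 between 60 and 80% (adjusted p = 0.00363) and -0.129 between 80 and 90% (adjusted p = 0.0165). In the class under 20% start levels were not quite equal, with a difference of -0.195 points at the start and 0.141 at the end. The class of 60 to 80% less that of 20 to 40%, a pair chosen after their slopes were seen, differed by -0.290 (adjusted p = 0.000253), and inner minus outer shores by 0.0532 (adjusted p = 0.000211). Median reads per tile over all libraries were 461 for shores and 316 for distant tiles, and 500 for inner and 388 for outer shores. With reads per tile matched, the values were 0.0162, 0.119, -0.0561, -0.102, -0.175 and 0.0634 in the same order, each past the test (exact permutation p at most 0.0359). The weighting on passages 6 to 8 held the mean differences there near 0, on which all these p-values partly rest. Slopes from passage 7 on, with the start from passage 6 alone, were 0.0255, 0.108, -0.147, -0.135, -0.255 and 0.0533. Each passed (exact permutation p at most 0.0169, n = 7). With 10 or more reads per CpG 3 of the 6 did not pass: 0.0865 between 20 and 40% (exact permutation p = 0.0851), -0.0186 between 60 and 80% (exact permutation p = 0.480) and -0.105 for the difference between these classes (exact permutation p = 0.0867). Against tiles 5 to 9 away the class of 60 to 80% had 0.0459 (exact permutation p = 0.0702) and that of 80 to 90% -0.0378 (exact permutation p = 0.249). No passage has replicate libraries, so no single library could be compared with others of its group.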

How the results depend on the processing

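No paired analysis was possible because the groups, which are the passages, hold a single library each. Over the alternatives, 190 values that answer a comparison kept their direction and side of the threshold (counts: within 1.5 times), 16 reversed, 13 newly passed the test, 8 no longer did and 8 counts moved further. Slopes below are in points per passage. The cause of the changes was not tested.

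The slope of shores minus distant tiles at equal start (-0.0203) turned positive at 0.0227 with 10 reads, 0.0470 with 20 reads, 0.000374 with 3 or more CpGs, 0.00157 with reads per tile matched, 0.0363 with pooled reads, 0.0146 with tiles 1 away, 0.0140 over passages 6 to 17, 0.0419 against tiles 5 to 9 away and 0.0151 against those 10 to 49 away. Of these it passed the test with 20 reads (exact permutation p = 0.0373), with pooled reads (exact permutation p = 0.0209) and against tiles 5 to 9 away (exact permutation p = 0.0136). With a negative sign it passed at -0.0233 with bins of 2 points, -0.0350 with dense tiles of 30 or more listed CpGs, -0.0265 against tiles 10 or more away, -0.0238 from 50 up to 200 away, -0.119 at 200 or more, and -0.0935 with tiles 2 away. Leaving out 1 library gave -0.0282 to -0.0146, and it passed without passage 6, 8 or 17.

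With 10 reads the classes gave 0.0865 (20 to 40%), 0.180 (40 to 60%, positive) and -0.0186 (60 to 80%), and the class of 60 to 80% less that of 20 to 40% gave -0.105. Against tiles 5 to 9 away, the classes from 40% up gave 0.148, 0.0459, -0.0378 and 0.0499. At 200 or more, the class of 20 to 40% gave 0.00705, that of 40 to 60% -0.330 and that of 90% or more -0.0977. With listed positions matched, the class of 40 to 60% gave 0.0429 and that of 90% or more -0.0351, and with reads matched the former gave 0.0501. Leaving out 1 library gave -0.148 to -0.0975 in the class of 80 to 90% and -0.0358 to -0.0101 at 90% or more, which passed only without passage 17. Inner minus outer shores gave 0.0379 with 20 reads. Low minus methylated dense neighbours gave -0.0661 at limits of 10 and 80%.

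Losses numbered 635 of 1328 tested shores with 10 reads (47.8%, against 46.1% of all tested tiles). Over passages 6 to 17 they numbered 472 of 4871 (9.69%, against 8.61%). Gains numbered 4 at 20 points, 4 with limma on logit levels, 4 with 10 reads, 14 up to passage 17, and 3 to 9 without 1 library. Among all tested tiles there were 100 gains of 120765, 148 of 156808, 51 of 24144 and 219 of 114288 in the same order. Without 1 library there were 148 to 288. Over passages 6 to 17 the fitted change was 3.46 points on chromosome 10 at 679001 and -7.75 on chromosome 3 at 101393001. Comparisons by distance band, with tiles 2 away, by class with matched reads or positions, the test between classes and the step from inner to outer shore were chosen after seeing the data. So were those with the start from passage 6 by class and for inner minus outer shores. Depth limits calls: 1328 shores were testable with 10 reads, against 5038.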
